A study of Rattus norvegicus with 8 samples.

Results

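The 36 genes described here are known from macrophages and other leukocytes. They were taken as a list of symbols, and all 36 were found among the 17379 genes measured in cultures of rat sensory neurons. By role, 7 are lineage and leukocyte cytoskeleton genes, 7 belong to cytokine, chemokine and related receptor signalling, and 4 to complement. A further 7 are Fc receptor, adaptor and integrin genes, 5 are scavenger and pattern recognition genes, and 6 act in the lysosome, the phagocyte oxidase or antigen presentation. The study sequenced RNA of dorsal root ganglion neurons from embryonic day 15 rats, kept for 7 days in microfluidic chambers that separate axons from cell bodies. There were 4 groups of 2 libraries: axonal RNA with a short hairpin RNA against Pum2 (axonal shPum2), axonal RNA with a control hairpin (axonal shControl), somatic shPum2 and somatic shControl. All groups had received a lentivirus on the day the neurons were plated, so none was untreated. Pum2 encodes a Pumilio protein, which binds mRNAs and represses them. The labels give no rat strain, no sex and no step that removes other cells from the ganglia, and they list the somatic source as cell bodies together with axons. An ultra-low input kit was used for axonal and a standard kit for somatic libraries, and the effects of compartment and of kit therefore cannot be told apart. The labels do not say whether replicates came from separate cultures, so p-values measure only the spread between these libraries, which may be technical.

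Macrophages are phagocytes that live in most tissues, sensory ganglia and peripheral nerves among them, where they take up debris and dying cells. The transcription factor PU.1, encoded by Spi1, and the receptor for colony stimulating factor 1, encoded by Csf1r, are needed to make and keep them. They sense their surroundings through Fc receptors, integrins and pattern recognition receptors that signal through small adaptors, secrete complement C1q and chemokines, and digest what they engulf in lysosomes.

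Totals of estimated counts ran from 11641947 to 16131611 in axonal and from 16725876 to 25821766 in somatic libraries, and 9542 to 10730 genes had a count in axonal and 14038 to 14263 in somatic libraries. Pum2 stood at 38.2 and 36.5 CPM, counts scaled to the library total, in somatic shPum2, against 164 and 160 CPM in somatic shControl. In axonal RNA the groups overlapped, with 1.46 and 7.07 CPM of Pum2 with shPum2 and 3.25 and 0.443 CPM with shControl. Of the 36 genes, 31 and 27 had at least 1 count in axonal shPum2, 31 and 30 in axonal shControl, 35 and 36 in somatic shPum2, and 34 and 35 in somatic shControl. Cd163, a scavenger receptor for haemoglobin complexes on mature macrophages, had 1 count in replicate 2 of somatic shPum2 and 0 in the other libraries, where 3 counts, the limit that a count of 0 allows, would be between 0.129 and 0.258 CPM. Intervals and limits of this kind cover counting error only. Cd74, the invariant chain of antigen presentation, had 0 counts in all 4 axonal libraries and 4 to 14 counts in somatic ones. The other 34 genes had counts in both compartments.

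PU.1 is known to bind purine-rich DNA with the core GAGGAA. That core, or TTCCTC on the other strand, was looked for between 250 bases before and 50 bases after the start of each gene in the RefSeq promoters of assembly GRCr8. It was present for 16 of the 23 listed genes in that table (69.6%) and for 29.2% of all 27457 genes in it. The 30-base stretches below show it, in capitals, in 6 genes whose levels are described next. They are written 5′ to 3′ along the strand of the gene.
Ptprc (chr13:52259892-52259921, minus strand, motif 163 bases before the start): tgttttccttcaGAGGAAaactgagacgaa
Cd53 (chr2:197087923-197087952, minus strand, 44 bases before): actcagtctcacTTCCTCactcttctcact
Csf1r (chr18:56834272-56834301, plus strand, 95 bases before): gacaagaacgtgTTCCTCtgttcccatccc
C1qb (chr5:154407900-154407929, minus strand, 90 bases before): acttacagtaatTTCCTCgagaagcagaaa
Cd68 (chr10:54882451-54882480, minus strand, 27 bases before): aagagttttcatTTCCTCttccaagagaag
Lyz2 (chr7:54798040-54798069, minus strand, 46 bases before): ctgtcaggaaagGAGGAActtggaggatgc
The 7 genes of the table without these letters in the window were Coro1a, Cx3cr1, Il2rg, Cnr2, C1qa, Tec and Cd163. A match of letters is a description of the sequence, and binding was not measured.

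Added together, the 36 genes made up 7884 and 1778 CPM in axonal shPum2, 6911 and 5605 CPM in axonal shControl, 669 and 325 CPM in somatic shPum2, and 425 and 342 CPM in somatic shControl. In CPM of all 36 genes every axonal library lay above every somatic library, and the ratio of the axonal to the somatic mean was 12.6, or 16.3 with shControl and 9.72 with shPum2. In TPM, a share scaled by transcript length, the ratio was 6.1, and replicate 2 of axonal shPum2, at 664 TPM, lay below replicate 1 of somatic shPum2, at 906 TPM. A few genes carried much of each sum. Cnr2, the cannabinoid receptor of immune cells, held 69.4% of the summed counts in replicate 2 of axonal shPum2 and 38.5% in replicate 1 of axonal shControl. Lyz2, the lysozyme of macrophages and granulocytes, held 26.1% in replicate 1 of axonal shPum2 and 39.1% in replicate 2 of axonal shControl. Coro1a, an actin-binding coronin, held between 24.8% and 56.1% of the somatic sums. Without Cnr2 the ratio of axonal to somatic means was 9.44, and without Cnr2 and Lyz2 it was 6.57. The sum of replicate 2 of axonal shPum2 was then 544 CPM without Cnr2 and 372 CPM without Cnr2 and Lyz2, below the 657 and 633 CPM of replicate 1 of somatic shPum2. Leaving out Coro1a, Lcp1 and Cnr2, which were chosen after their values were seen, raised the ratio to 16.8. Replicate 2 of axonal shPum2 was then at 526 CPM, above the 468 CPM of replicate 1 of somatic shPum2. In these bulk libraries fewer cells of a type and less RNA per cell cannot be told apart.

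**Figure D1:**
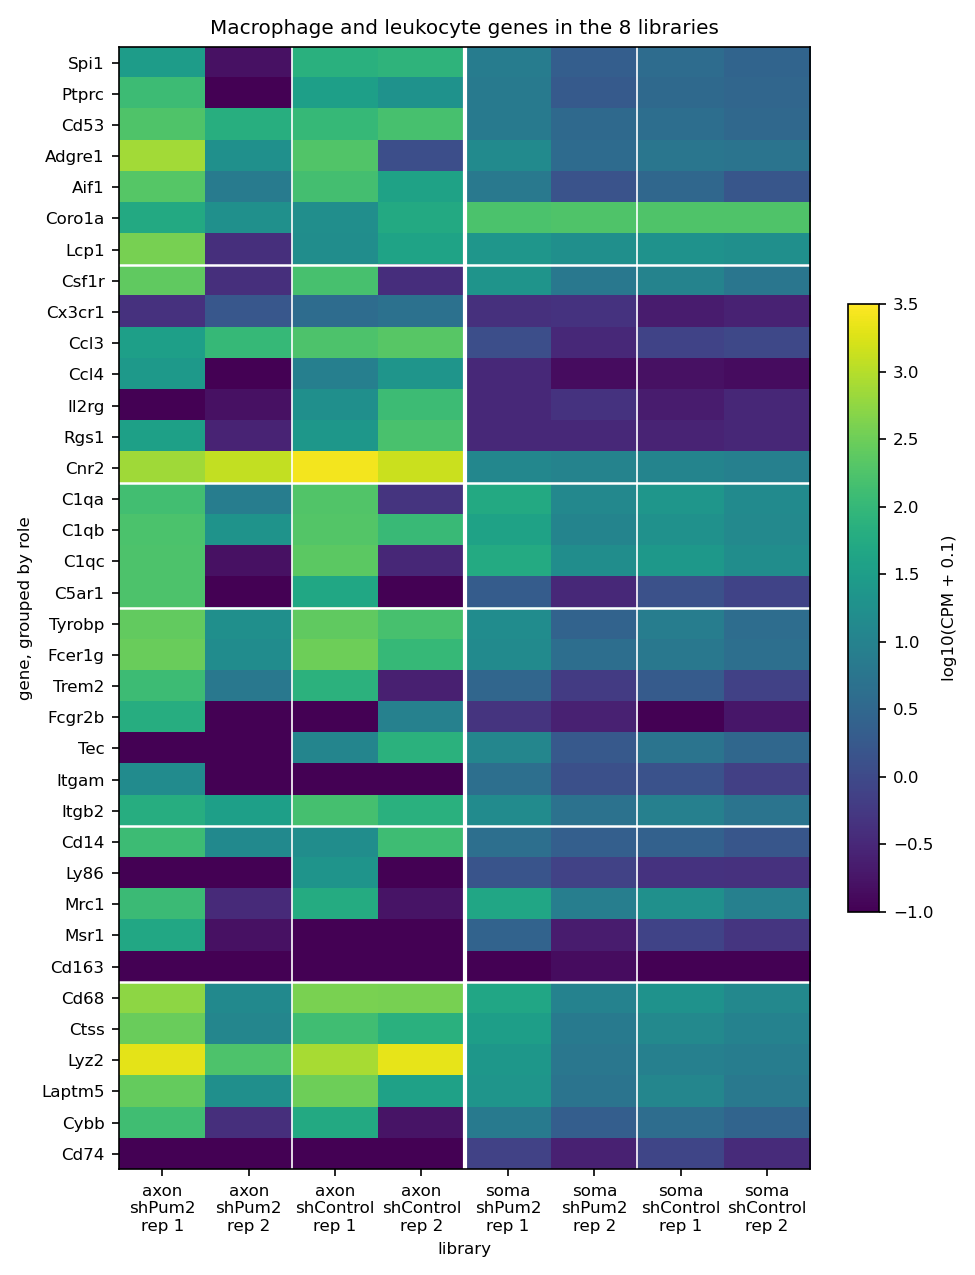
Level of each of the 36 genes (rows, grouped by role with white lines between groups) in each of the 8 libraries (columns), as log10 of CPM plus 0.1. Axonal columns are brighter for most genes but uneven within a group, Coro1a is brighter in the 4 somatic columns, and Cd163 is dark throughout.

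**Figure D2:**
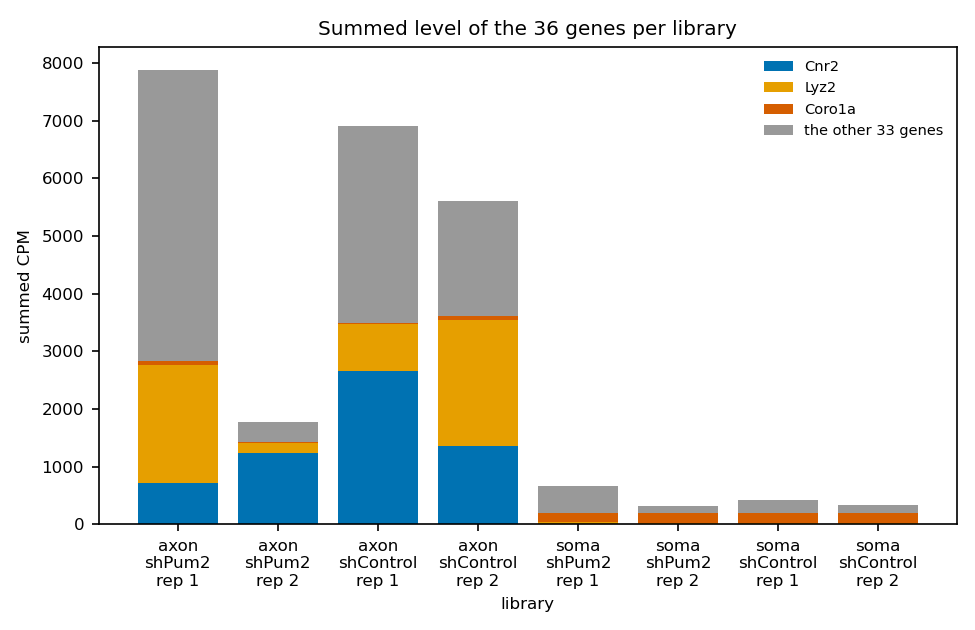
Summed CPM of the 36 genes per library (vertical axis), split into Cnr2, Lyz2, Coro1a and the other genes. The 4 axonal libraries reach 7884, 1778, 6911 and 5605 CPM, and the 4 somatic libraries stay between 325 and 669 CPM. Without the Cnr2 segment the second axonal bar would be 544 CPM, below the 657 CPM of replicate 1 of somatic shPum2.

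The axonal libraries were compared with the somatic libraries of the same hairpin in a fit of all 8 libraries. With shControl, 15 of the 35 genes tested were higher in axonal RNA and 0 were lower, where 9.41% of the 12337 genes tested were called higher and 18.5% lower. With shPum2, 9 were higher and 1, Tec, was lower, against 8.45% and 16.2% of all genes. The median log2 change over the 35 genes was 6.17 with shControl and 4.70 with shPum2, while that of all genes tested was -0.75 and -0.64. Cd163 was the gene not tested. Log2 changes were positive for 31 of the 35 with shControl and 30 with shPum2, against 5123 and 4957 of all 12337 genes. Without replicate 1 of axonal shControl, 22 of the 35 were positive with shControl. Without replicate 1 of axonal shPum2, 17 of the 35 were positive with shPum2. The 9 genes called with shPum2 (Aif1, Ccl3, Cd14, Cd53, Cnr2, Fcer1g, Itgb2, Lyz2 and Tyrobp) were all among the 15 called with shControl, that is 100% of the first list and 60% of the second. The same 9 were the genes whose 4 axonal libraries all lay above all 4 somatic libraries in CPM, a pattern found in 7.73% of all genes. Log2 changes are on the TMM scale, which sets axonal values higher against somatic ones than plain totals do. With totals alone the median of all genes moved by -1.59 with shControl and -1.40 with shPum2. Of the 35 genes tested, 11 were then higher and 1 lower with shControl, beside 609 and 3606 of all 12337 genes. With shPum2, 4 were higher and 1 lower, beside 538 and 3015 of all genes. On that scale 14.4% (shControl) and 15.1% (shPum2) of all calls were higher, against 33.7% and 34.2% with TMM.

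These calls rested on few libraries. Without either replicate of somatic shControl, 0 of the genes were called with shControl, and without either replicate of somatic shPum2, 0 were called with shPum2, as for all genes tested. Without replicate 1 or 2 of somatic shControl, 3 were called with shPum2, as were 375 or 386 of all genes in place of 3046. Without replicate 1 or 2 of somatic shPum2, 5 were called with shControl, as were 514 or 498 of all genes in place of 3445. Without replicate 2 of axonal shPum2, 17 were called with shPum2, and 2802 of all genes.

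Among the lineage genes, Cd53, a leukocyte tetraspanin, had 181 and 65.3 CPM in axonal shPum2 and 102 and 158 CPM in axonal shControl, against 7.06 and 3.37 CPM in somatic shPum2 and 4.13 and 3.28 CPM in somatic shControl. Its lowest axonal library lay well above its highest somatic library. The log2 change was 6.71 with shControl (SE 0.71) and 5.98 with shPum2 (SE 0.68), with adjusted p of 0.00475 and 0.0062 (edgeR quasi-likelihood, Benjamini-Hochberg). SE stands for an approximate standard error, the absolute log2 change divided by the square root of the F statistic of the test. Aif1, which encodes the macrophage protein IBA1, had 204 and 7.44 CPM in axonal shPum2 and 141 and 39.2 CPM in axonal shControl, against 1.32 to 6.59 CPM in somatic libraries. Here replicate 2 of axonal shPum2 came close to the top of the somatic range. Ptprc, the pan-leukocyte phosphatase CD45, had 123 and 0 CPM in axonal shPum2 and 34.8 and 19.6 CPM in axonal shControl, and 1.78 to 6.68 CPM in somatic libraries. It did not pass with either hairpin, and its replicates in axonal shPum2 stood at opposite ends of its range. Spi1 had 30.7 and 0.0620 CPM in axonal shPum2 and 72.05 and 85.2 CPM in axonal shControl, against 7.67 and 2.13 CPM in somatic shPum2 and 3.77 and 2.76 CPM in somatic shControl. Adgre1, the macrophage receptor F4/80, ranged from 1.11 CPM in replicate 2 of axonal shControl to 759 CPM in replicate 1 of axonal shPum2.

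Coro1a did not follow the others. It had 54.8 and 18.0 CPM in axonal shPum2 and 16.4 and 54.5 CPM in axonal shControl, against 166 and 182 CPM in somatic shPum2 and 184 and 179 CPM in somatic shControl. All 4 axonal libraries lay below all 4 somatic libraries, as they did for 58.4% of all genes, and Cd74 was the other listed gene with this order. The log2 change of Coro1a was -0.79 with shControl and -0.87 with shPum2, with adjusted p of 0.426 and 0.422 (edgeR quasi-likelihood, Benjamini-Hochberg). In TPM, Coro1a was the most abundant of the 36 genes in each somatic library, at 191 and 207 TPM with shPum2 and 212 and 203 TPM with shControl, whereas Lyz2 was at 37.9 and 9.20 TPM in somatic shPum2 and at 14.25 and 12.5 TPM in somatic shControl. In replicate 1 of axonal shPum2 the order was the other way round, with 1578 TPM of Lyz2 and 30.35 TPM of Coro1a.

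The signalling genes held the largest positive fitted log2 changes between compartments. Ccl3, a macrophage inflammatory chemokine, had 34.5 and 102 CPM in axonal shPum2 and 178 and 210 CPM in axonal shControl, against 1.08 and 0.232 CPM in somatic shPum2 and 0.718 and 0.863 CPM in somatic shControl. The compartments did not overlap, and the log2 change was 9.50 with shControl (SE 1.26, adjusted p = 0.00717) and 8.43 with shPum2 (SE 1.21, adjusted p = 0.00973, edgeR quasi-likelihood, Benjamini-Hochberg). Its relative Ccl4 had 27.2 and 0 CPM in axonal shPum2 and 8.64 and 21.8 CPM in axonal shControl, with 1 to 5 counts per somatic library. Cnr2 had 710 and 1234 CPM in axonal shPum2 and 2657 and 1360 CPM in axonal shControl, against 12.2 and 10.2 CPM in somatic shPum2 and 10.8 and 9.19 CPM in somatic shControl. Each axonal library was more than an order of magnitude above each somatic library, with a log2 change of 9.24 (shControl, SE 0.78) and 8.09 (shPum2, SE 0.74). The adjusted p were 0.00418 and 0.00485 (edgeR quasi-likelihood, Benjamini-Hochberg). Of its 3 annotated transcripts in the files, that of 3198 bases carried 8155 and 19902 estimated counts in axonal shPum2 and 31052 and 18404 in axonal shControl, and that of 1728 bases had 0 counts in every library. Whether the counts of the longer transcript come from Cnr2 itself or from other sequence at that place was not tested.

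Other signalling genes were called with shControl alone, and the difference between hairpins did not pass for any of them in the test described further on. Rgs1, which damps chemokine receptor signals, had 36.2 and 0.186 CPM in axonal shPum2 and 24.4 and 159 CPM in axonal shControl, against 0.179 to 0.235 CPM in somatic libraries. Cx3cr1, the fractalkine receptor of macrophages and microglia, was low everywhere, at 0.344 and 1.55 CPM in axonal shPum2, 3.77 and 4.66 CPM in axonal shControl and 0.120 to 0.349 CPM in somatic libraries. Il2rg, the common gamma chain of interleukin receptors, had 17.2 and 122 CPM in axonal shControl and 0.120 and 0.216 CPM in somatic shControl. The log2 changes with shControl were 10.33 for Rgs1, 6.32 for Cx3cr1 and 10.15 for Il2rg, with adjusted p of 0.0278, 0.0208 and 0.0139 (edgeR quasi-likelihood, Benjamini-Hochberg). Csf1r had 252 and 0.310 CPM in axonal shPum2 and 153 and 0.296 CPM in axonal shControl, so its axonal libraries lay both above and below the somatic range of 5.65 to 21.3 CPM.

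The 3 chains of complement C1q, which macrophages secrete as a complex, ran together in somatic but not in axonal RNA. In somatic RNA, C1qa, C1qb and C1qc had 106, 68.45 and 103 TPM in replicate 1 of shPum2, and 27.4, 22.0 and 29.9 TPM in replicate 2 of shControl. In replicate 2 of axonal shControl, C1qb stood at 89.9 TPM, while C1qa was at 0.327 and C1qc at 0.189 TPM. Replicate 1 of the same group had 154, 143 and 184 TPM of C1qa, C1qb and C1qc. In CPM, C1qb had 170 and 20.6 in axonal shPum2 and 198 and 114 in axonal shControl, against 39.9 and 10.5 in somatic shPum2 and 18.6 and 12.9 in somatic shControl. Only C1qb of the 4 complement genes was called, with shControl, at a log2 change of 4.90 (SE 1.09, adjusted p = 0.0218, edgeR quasi-likelihood, Benjamini-Hochberg). C5ar1, the receptor of complement fragment C5a, had 175 and 0 CPM in axonal shPum2 and 47.0 and 0 CPM in axonal shControl, and 0.232 to 1.93 CPM in somatic libraries.

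Of the adaptors and integrins, Tyrobp, the adaptor DAP12, had 264 and 17.6 CPM in axonal shPum2 and 251 and 158 CPM in axonal shControl, against 15.5 and 2.60 CPM in somatic shPum2 and 7.95 and 3.97 CPM in somatic shControl. Fcer1g, the gamma chain of Fc receptors, had 297 and 15.1 CPM in axonal shPum2 and 319 and 103 CPM in axonal shControl, against 4.14 to 14.3 CPM in somatic libraries. For both genes the lowest axonal library, replicate 2 of shPum2, lay just above the highest somatic one. The log2 changes of Tyrobp were 6.70 with shControl and 5.25 with shPum2, and those of Fcer1g 6.92 and 5.35. Trem2, a lipid receptor that signals through Tyrobp, had 121 and 6.26 CPM in axonal shPum2 and 78.7 and 0.148 CPM in axonal shControl. In replicate 2 of axonal shControl it stood at 0.114 TPM beside 311 TPM of Tyrobp. The integrin chain Itgb2 was present in all axonal libraries, with 63.8 and 34.5 CPM in shPum2 and 150 and 71.2 CPM in shControl, against 4.84 to 14.6 CPM in somatic libraries. Its partner Itgam, which with it forms complement receptor 3, had 14.6 and 0 CPM in axonal shPum2 and 0 CPM in both axonal shControl libraries, and 0.604 to 4.33 CPM in somatic libraries. Fcgr2b, the inhibitory Fc gamma receptor, was at 64.1 and 0 CPM in axonal shPum2 and at 0 and 9.24 CPM in axonal shControl.

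Cd14, a coreceptor for bacterial lipopolysaccharide, was the scavenger and pattern recognition gene called with both hairpins. It had 123 and 13.5 CPM in axonal shPum2 and 16.2 and 125 CPM in axonal shControl, against 1.51 to 4.28 CPM in somatic libraries. Its log2 change was 6.74 with shControl (adjusted p = 0.0214) and 5.67 with shPum2 (adjusted p = 0.0296, edgeR quasi-likelihood, Benjamini-Hochberg). Mrc1, the mannose receptor of tissue macrophages, had 117 and 0.248 CPM in axonal shPum2 and 58.3 and 0.0739 CPM in axonal shControl, against 45.45 and 8.29 CPM in somatic shPum2 and 18.0 and 8.85 CPM in somatic shControl. Its axonal replicate 2 libraries were thus below every somatic library and its axonal replicate 1 libraries above them.

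Lyz2 had 2061 and 172 CPM in axonal shPum2 and 816 and 2190 CPM in axonal shControl, against 23.95 and 5.89 CPM in somatic shPum2 and 8.97 and 8.03 CPM in somatic shControl. Every axonal library was above every somatic library. The log2 change was 9.03 with shControl (SE 1.43, adjusted p = 0.0114) and 7.52 with shPum2 (SE 1.34, adjusted p = 0.0173, edgeR quasi-likelihood, Benjamini-Hochberg). Cd68, a lysosomal membrane protein used as a macrophage stain, had 554 and 13.6 CPM in axonal shPum2 and 399.9 and 373 CPM in axonal shControl, against 45.9 and 9.76 CPM in somatic shPum2 and 19.9 and 12.4 CPM in somatic shControl. Laptm5, a lysosomal protein of blood cells, had 273 and 17.5 CPM in axonal shPum2 and 317 and 36.9 CPM in axonal shControl, against 5.31 to 21.8 CPM in somatic libraries. Both were called with shControl alone, at log2 changes of 6.17 and 5.92 (adjusted p = 0.0332 and 0.0395, edgeR quasi-likelihood, Benjamini-Hochberg), and in replicate 2 of axonal shPum2 both lay within the somatic range. The protease gene Ctss and the oxidase subunit gene Cybb were not called with either hairpin.

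**Figure D3:**
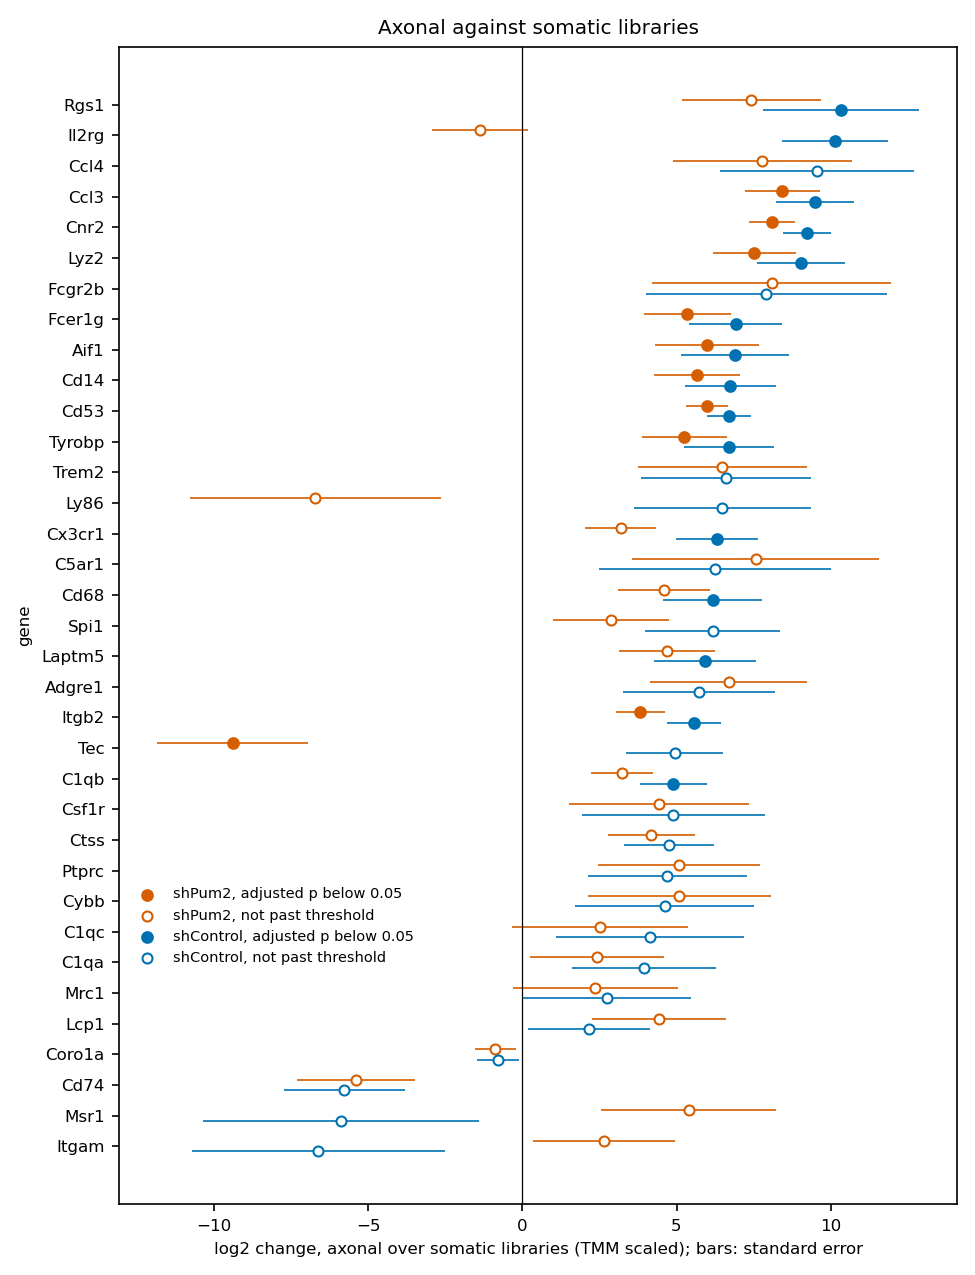
Log2 change of axonal over somatic libraries on the TMM scale (horizontal axis) for the 35 genes tested. Bars give the approximate standard error, back-calculated from the F statistic. For each gene shPum2 is above shControl, and filled points mark adjusted p below 0.05. Most points lie right of 0; Coro1a and Cd74 lie left of it with both hairpins, Tec, Ly86 and Il2rg with shPum2, and Itgam and Msr1 with shControl. Values of genes with 0 counts in a group (Cd74, and with shPum2 Tec and Ly86, with shControl Itgam and Msr1) depend on the prior count of the fit.

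Within an axonal group, some of the genes were abundant in 1 library and nearly absent from the other. In axonal shPum2, 25 of the genes reached 50 CPM in a library, and 8 of these were below 1 CPM in the other library, against 8.23% of all genes that reached 50 CPM. All 8 (Ptprc, Lcp1, Csf1r, C1qc, C5ar1, Fcgr2b, Mrc1 and Cybb) were low in replicate 2. Lcp1, the actin bundling protein L-plastin, had 385 CPM in replicate 1 and 0.310 CPM in replicate 2. In axonal shControl, 6 of 25 such genes were below 1 CPM in the other library, against 8.13% of all genes, and all 6 (Csf1r, C1qa, C1qc, Trem2, Mrc1 and Cybb) were again low in replicate 2. How such genes split between the replicates was not counted over all genes, so this order may not be particular to the listed genes. Cybb had 133 and 0.310 CPM in axonal shPum2 and 53.9 and 0.0739 CPM in axonal shControl. In somatic RNA 3 of the listed genes reached 50 CPM with shPum2 and 1 with shControl, and 0 of them showed this pattern, as for all genes (0%). Both axonal replicate 2 libraries had larger totals than the replicate 1 libraries of their group, but fewer genes with a count. These numbered 9542 against 10730 with shPum2 and 10120 against 10166 with shControl. The cause of the low replicate 2 values was not tested.

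In somatic RNA, the comparison of the hairpins asked whether these genes change in the cell body compartment when Pum2 is reduced. Of 30 genes tested, 0 passed with edgeR's quasi-likelihood test (0.0081% of all genes passed, Pum2 itself), DESeq2 called 0 of them, and 0 had an unadjusted p below 0.05 (0.599% of all genes). The log2 differences were positive for 27 of 30, against 52.7% of all genes, with a median of 0.65 over the 30 genes and 0.01 over all genes. They ran from -0.35 for Cd74 to 1.54 for Itgam. Those not tested for low counts were Cx3cr1, Ccl4, Il2rg, Rgs1, Fcgr2b and Cd163. The positive median rested on replicate 1 of somatic shPum2: without it the median was -0.60 and 5 of 30 genes were positive.

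That library held the highest level of 28 of the 30 genes, against 40.7% of all genes. Replicate 2 of the same group held the lowest level of 23, for which the share over all genes was not counted. Cd68, at 45.9 and 9.76 CPM in somatic shPum2 and 19.9 and 12.4 CPM in somatic shControl, shows the usual order. Its log2 difference was 0.76 with an SE of 0.72. C1qa had 54.7 and 12.4 CPM in somatic shPum2 and 23.3 and 14.3 CPM in somatic shControl, with a log2 difference of 0.81 (SE 0.70). C1qc had 55.3 and 16.15 CPM in somatic shPum2 and 24.8 and 16.3 CPM in somatic shControl, with a log2 difference of 0.77 (SE 0.59). In Cd68, C1qa and C1qc both shControl libraries fell between the shPum2 libraries. Csf1r, at 21.3 and 6.12 CPM in somatic shPum2 and 10.2 and 5.65 CPM in somatic shControl, had a log2 difference of 0.77 (SE 0.64). Msr1, a scavenger receptor, spread most, at 2.64 and 0.116 CPM in somatic shPum2 and 0.718 and 0.388 CPM in somatic shControl.

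Replicate 1 was above replicate 2 in both somatic groups for 28 of the 30 genes, against 43.1% of all genes, the exceptions being Coro1a and Ccl3. The median ratio of replicate 1 to replicate 2 was 3.88 in shPum2 and 1.55 in shControl over the 30 genes, and 1.04 and 1.03 over all genes. Ly86, the MD-1 partner of a Toll-like receptor homologue, was the gene with both shPum2 libraries (1.36 and 0.658 CPM) above both shControl libraries (0.359 and 0.345 CPM), an order found in 11.5% of all genes. Its log2 difference was 1.48 (SE 0.58), and the quasi-likelihood test of edgeR gave it, like the other genes tested, an adjusted p of 0.9997 after Benjamini-Hochberg adjustment. Itgam, at 4.33 and 1.16 CPM in somatic shPum2 and 1.26 and 0.604 CPM in somatic shControl, had a difference of 1.54 (SE 0.77).

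Coro1a, Lcp1 and Cnr2 varied little among the same libraries. Coro1a had the 4 values given above and a log2 difference of -0.07 (SE 0.10). Lcp1 had 23.3 and 17.5 CPM in somatic shPum2 and 19.4 and 17.7 CPM in somatic shControl, a difference of 0.13 (SE 0.17). Cnr2 differed by 0.15 (SE 0.19). These 3 genes were singled out after their values were seen. Without them the summed level was 468 and 115 CPM in somatic shPum2 and 211 and 136 CPM in somatic shControl, a ratio of means of 1.68, whereas it was 1.3 with them and 0.848 for all 36 genes without replicate 1 of somatic shPum2.

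**Figure D4:**
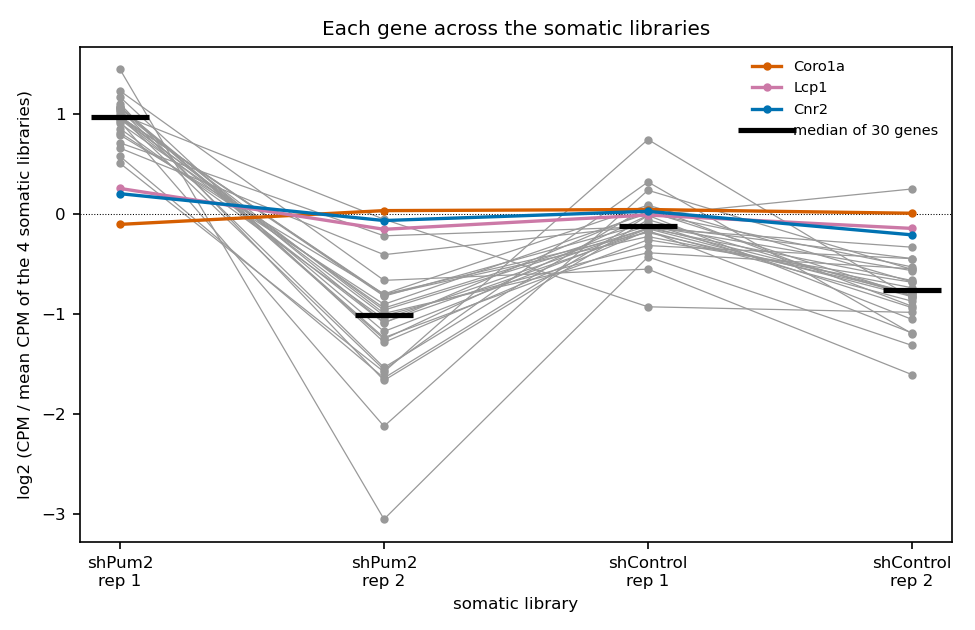
Log2 of the CPM of each of the 30 genes tested in somatic libraries, relative to its mean over the 4 somatic libraries (vertical axis), in each library (horizontal axis). Grey lines join the values of a gene, black bars mark the median, and Coro1a, Lcp1 and Cnr2 are coloured. Replicate 1 of shPum2 is the highest library for 28 of the 30 genes, and the coloured genes stay near 0.

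Markers of other cells were read beside these levels, and their part in the results was not tested. A list of 41 measured leukocyte genes outside the 36 summed to 371 and 157 CPM in somatic shPum2 and 225 and 179 CPM in somatic shControl. Of its 32 genes tested there, 29 were positive and 0 passed, against 52.7% and 0.0081% of all genes. The median log2 difference was 0.59 over the 32 genes and 0.01 over all genes. In axonal RNA this list summed to 2030 and 173 CPM with shPum2 and 1685 and 1135 CPM with shControl, so replicate 2 of axonal shPum2 was again the low library. Of 38 tested between compartments, 6 were higher in axonal RNA with shControl and 4 with shPum2. Among all genes tested, 9.41% were called higher with shControl and 8.45% with shPum2. The oxidase subunit gene Cyba was among both, at 194 and 27.6 CPM in axonal shPum2 and 135 and 91.6 CPM in axonal shControl, against 21.1 and 4.41 CPM in somatic shPum2 and 9.81 and 5.74 CPM in somatic shControl. Ncf1, Rac2 and Mpeg1 of the same list had 185, 105 and 198 CPM in replicate 1 of axonal shPum2. In its replicate 2 they had 4.15, 0.496 and 0.93 CPM, below each of their somatic libraries. Apoe, a ligand of Trem2, had 3250 and 16.2 CPM in axonal shPum2 and 4510 and 63.4 CPM in axonal shControl, and was thus low in the same replicate 2 libraries as Trem2.

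Fibroblast genes had the somatic order of the macrophage genes but not their axonal excess. Their 10 measured genes summed to 9090 and 1824 CPM in somatic shPum2 and 3569 and 1839 CPM in somatic shControl, with a median replicate 1 to 2 ratio of 4.73 and 1.92, and to 778 and 70.2 CPM in axonal shPum2 and 414 and 222 CPM in axonal shControl. Globin and other erythroid genes were high in axonal RNA, at 3553 and 160 CPM in shPum2 and 1107 and 179 CPM in shControl, against 25.6 and 4.61 CPM in somatic shPum2 and 13.75 and 4.88 CPM in somatic shControl. Of 8 erythroid genes tested, 3 were higher in axonal RNA with shControl and 2 with shPum2, against 9.41% and 8.45% of all genes. Markers of T cells summed to at most 55.9 CPM, with Cd3e at 0 in all somatic libraries. Neutrophil markers summed to at most 20.8 CPM in a library. Neuronal markers summed to between 17690 and 33210 CPM in axonal and between 30800 and 36010 CPM in somatic libraries, with replicate ratios near 1 in somatic RNA (0.849 in shPum2 and 0.995 in shControl).

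In axonal RNA, the comparison of the hairpins asked whether the genes change in the axonal compartment, whichever cells there carry them. Of 31 genes tested, 0 passed (0% of all 8517 genes passed) and 2, Il2rg and Tec, had an unadjusted p below 0.05, as did 3.02% of all genes. The adjusted p was 0.9998 for each (edgeR quasi-likelihood, Benjamini-Hochberg). The median log2 difference was -0.64 over the 31 genes and -0.05 over all genes, and 10 of 31 were positive, against 48.3% of all genes. The median was 0.18 without replicate 2 of axonal shPum2, 0.27 without replicate 1 of axonal shControl and -3.54 without replicate 1 of axonal shPum2. Without replicate 1 of axonal shPum2, 3 of the genes passed (C1qc, Cd68 and Lyz2), as did 31 of all genes tested. Without replicate 1 of axonal shControl, 4 passed (Adgre1, C5ar1, Il2rg and Tec), as did 22 of all genes tested. The mean summed level of the 36 genes in axonal shPum2 was 0.772 times that in axonal shControl, 1.26 times without replicate 2 of axonal shPum2 and 0.284 times without its replicate 1.

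For 7 genes both shPum2 libraries lay below both shControl libraries, against 12% of all genes, and for 0 they lay above, against 15.8%. The 7 were Spi1, Cx3cr1, Ccl3, Il2rg, Cnr2, Tec and Itgb2. Il2rg had 0 and 1 counts in axonal shPum2 and 201 and 1649 counts in axonal shControl, a pooled ratio of 2040-fold lower with a counting interval (95%, exact) of 365 to 80500. Tec, a kinase of leukocyte receptors, had 0 counts in axonal shPum2 and 132 and 1009 in axonal shControl, at least 419-fold lower when 3 counts are allowed over the group. Tec was also at 11.6 and 1.70 CPM in somatic shPum2, so its axonal level there was at least 57.2-fold below the somatic one. DESeq2 called Il2rg and Tec, and edgeR with no low-count filter called Il2rg. The remaining 5 differed less: Spi1 had a log2 difference of -2.72 (SE 1.92), Cx3cr1 of -2.08 (SE 2.26), Ccl3 of -1.48 (SE 0.88), Cnr2 of -1.08 (SE 0.69) and Itgb2 of -1.35 (SE 0.91).

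Each of the other genes overlapped between the hairpins or was too low to test. Lyz2 differed by -0.74 (SE 0.95), Cd68 by -0.80 (SE 1.17), Csf1r by 0.33 (SE 2.33) and Fcgr2b by 2.44 (SE 3.16). For Itgam, Msr1 and Ly86, which were not tested, all or nearly all axonal counts lay in a single library. Itgam had 170 and 0 counts in axonal shPum2 and 0 in axonal shControl, at least 51.5-fold higher. Msr1 had 572 and 1 counts in axonal shPum2 and 0 in axonal shControl, at least 173-fold higher. Ly86 had 0 counts in axonal shPum2 and 247 and 0 in axonal shControl, at least 90.7-fold lower. These folds pool the libraries of a group and cover counting error only. They set no lower limit on a difference between the hairpins, because the libraries of a group disagreed.

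A difference between the axonal and the somatic effect of the hairpin was tested as an interaction in the fit of all 8 libraries. Of 35 genes, 0 passed, as for all genes tested (0%), and 3 had an unadjusted p below 0.05, as did 7.81% of all genes. These were Il2rg, Tec and Ly86, with adjusted p of 0.329, 0.332 and 0.572 (edgeR quasi-likelihood, Benjamini-Hochberg). DESeq2 called these 3. The fit shares the spread of each gene between compartments, whereas the biological coefficient of variation was 23.5% in somatic and 125% in axonal libraries fitted alone.

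The authors' deposited tables give the same comparisons by DESeq2. In the somatic one of the authors' deposited tables, 0 of the 36 genes passed (0.0134% of its genes did), and their log2 fold changes ran from -0.05 to 0.13 with a median of 0.05, of which 33 were positive. Those values are much smaller than the edgeR differences, and whether they were shrunk is not stated in the sources used here. In the axonal one of the authors' deposited tables, 4 of the 34 genes with a value passed, against 4.03% of its genes. Il2rg (adjusted p = 6.2e-05), Tec (0.00019) and Ly86 (0.0418) were lower and Msr1 (0.0116) was higher with shPum2 in the authors' deposited table, which adjusts DESeq2 p-values.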

How the data were processed

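RNA sequencing of 8 libraries was used, 2 per group as the sample titles give. The authors deposited, per library, estimated counts and TPM for 18321 RefSeq transcripts, per the file headers. The submitters' processing notes name kallisto, DESeq2 and the build Rnor_6.0. The authors' deposited comparison tables hold a mean normalised signal, log2 fold changes (shPum2 over shControl, from the sign of somatic Pum2) with standard errors, a test score and raw and adjusted p-values, per the file headers. Strandedness of the counting is not given in the sources used here, and 9 of the 36 genes overlap another annotated gene in GRCr8.

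Transcripts were matched to symbols through the RefSeq table of GRCr8 (94.8%), used for names and promoter sequence. Estimated counts were summed per gene and rounded. CPM used library totals; depth sets their precision. edgeR 4.0.16 (quasi-likelihood test, TMM, filterByExpr) in R 4.3.3 was fitted across all genes with Benjamini-Hochberg adjustment and a threshold of 0.05: the 4 libraries of a compartment for each hairpin comparison, all 8 for compartments and the interaction. SE values were back-calculated from the log2 change and the F statistic of the quasi-likelihood test. Fits were tested on simulated data. Alternatives were DESeq2 1.42.0 and its size factors, library totals, no filter, a replicate block, other libraries in the fit, each library left out, and TPM for summed levels; sums without named genes were added after seeing the data. The genes and lists were chosen with earlier results of these data known. Named were the 36 genes, Pum2, and up to 4 genes per other list by mean CPM, plus list genes whose counts are 0. Results of 2 listed marker genes are not reported here.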

Additional observations from a re-analysis of the deposited data

How the results depend on the processing

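Changing the size factors or dropping the filter on low counts left 0 of the genes called in the somatic comparison, and so did DESeq2, the replicate block and each library left out. In that comparison the number of genes called overall was 1 with edgeR, 2 with DESeq2 and 0 in a fit of all 8 libraries. In the axonal comparison, where 0 genes were called, 6 genes overall and 1 of the 36 were called with no filter, and 157 and 2 with DESeq2. For the interaction DESeq2 called 606 genes overall and 3 of the 36. Between compartments, DESeq2 called 25 of the 35 tested with shPum2 (23 higher, 2 lower) and 25 with shControl (25 higher), beside 4364 and 5072 genes overall. With shPum2, 5 of the 35 were called with library totals, beside 3553 genes overall. In a fit of the 4 shPum2 libraries, 3 of 29 tested were called, beside 2185 genes overall. With shPum2 the main fit called 10 and 3046. A fit of the 4 shControl libraries called 18 of 30 tested and 3953 of all genes. With shControl the main fit called 15 and 3445. For single genes, 374 of 414 values under alternatives other than a library left out kept direction and side of the threshold, 22 no longer passed, 17 newly passed and 1 reversed. With a library left out, 308 of 444 kept both, 100 no longer passed, 10 newly passed and 26 reversed.

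Leaving out each library in turn gave these ranges. Somatic: 0 to 1 genes called, member median -0.60 to 1.30, and summed level ratio 0.848 to 1.74. Axonal: 0 to 31 genes and 0 to 4 of the 36 called, member median -3.54 to 0.27, and summed level ratio 0.284 to 1.26. Axonal over somatic: 0 to 4862 genes and 0 to 17 of the 36 with shPum2, 0 to 5539 and 0 to 20 with shControl, and summed level ratio 10.8 to 15.4. Interaction: 0 to 713 genes and 0 to 1 of the 36. Positive somatic log2 differences numbered 27 of 30 in all libraries and 5 of 30 without replicate 1 of somatic shPum2. Positive axonal ones numbered 10 of 31 in all libraries and 0 of 32 without replicate 1 of axonal shPum2. Without replicate 2 of axonal shPum2 they numbered 23 of 34. They numbered 17 of 33 without replicate 1 of axonal shControl and 12 of 34 without its replicate 2. Single signs were followed for a selection of the genes in each comparison, not for all 36, and the lists below cover that selection. Somatic log2 differences that changed sign were Spi1 (-0.58 to 1.19), Ptprc (-0.79 to 1.04), Csf1r (-0.33 to 1.39), C1qa (-0.57 to 1.50), C1qb (-0.55 to 1.30), C1qc (-0.31 to 1.39), Tyrobp (-1.16 to 1.35), Mrc1 (-0.66 to 1.73), Msr1 (-2.14 to 2.23), Cd68 (-0.69 to 1.47), Lyz2 (-0.50 to 1.45), Coro1a (-0.18 to 0.03), Lcp1 (-0.05 to 0.28), Ccl3 (-1.73 to 0.39) and Cd74 (-1.62 to 0.58). Axonal ones were Lyz2 (-2.95 to 0.06), Cd68 (-4.67 to 0.12), Csf1r (-7.76 to 8.32) and Fcgr2b (-8.92 to 11.36). Between compartments they were C1qc (-7.07 to 3.56) and Csf1r (-3.41 to 5.48) with shPum2, and C1qc (-4.89 to 5.12) and Csf1r (-3.10 to 5.88) with shControl. Apart from fewer libraries in each fit, the cause was not tested.

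Same-numbered libraries deviated together across genes at r = 0.706 in somatic and 0.114 in axonal RNA, and the labels tie the numbers to no shared culture, so they were not taken as pairs. With the replicate block the member median was 0.39 in somatic and -1.11 in axonal RNA and 0 of the 36 were called in both comparisons. Between compartments 11 of the 35 tested were then called with shPum2, with C1qb, Laptm5 and Cd74 in and Cd14 and Tec out. With shControl 16 were called, with Cd74 and Ctss in and Rgs1 out. Cd74 was lower with both. Of all genes, 2199 were called with shPum2 and 2370 with shControl, in place of 3046 and 3445. C1qc with shPum2 turned to -0.75. Axonal depth limits what can be read from genes at 0: 3 counts were 0.186 to 0.258 CPM there.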

Other observations

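Hbe1, an embryonic beta-like globin, had 2030 and 39.4 CPM in axonal shPum2 and 582 and 76.8 CPM in axonal shControl, against 8.14 and 0.387 CPM in somatic shPum2 and 3.23 and 0.388 CPM in somatic shControl. Hba-a1, an alpha globin, had 786 and 53.1 CPM in axonal shPum2 and 312 and 80.8 CPM in axonal shControl, against 0.581 to 6.35 CPM in somatic libraries. As for many of the macrophage genes, replicate 1 exceeded replicate 2 in all 4 groups for Hbe1 and Hba-a1. Gpr34, a receptor of microglia, had 31.5 and 0 CPM in axonal shPum2 and 7.96 and 0 CPM in axonal shControl, against at most 1.13 CPM in somatic libraries. Microglia markers did not share a direction between compartments. Of 5 tested, 3 were positive and 2 negative with each hairpin. With shPum2, 0 were called higher and 1 lower, against 8.45% and 16.2% of all genes. With shControl 0 were called. Olfml3 changed by -1.88 with shControl and 1.32 with shPum2, and Tmem119 by 2.16 and -0.97. Markers of Schwann and satellite glial cells summed to 63.6 and 63.2 CPM in axonal shPum2 and 28.5 and 94.5 CPM in axonal shControl, against 54.8 and 27.15 CPM in somatic shPum2 and 31.1 and 23.6 CPM in somatic shControl. Kit carried nearly all of the mast cell sum, at 28.9 and 0.186 CPM in axonal shPum2 and 0.0856 and 7.24 CPM in axonal shControl, against 53.5 and 65.3 CPM in somatic shPum2 and 45.1 and 59.2 CPM in somatic shControl, while Cpa3 had 0 counts throughout. Endothelial markers summed to at most 85.5 CPM in a library.

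Of the 5 Ptprc transcripts in the files, that of 4670 bases held most of the counts in each library with any, with 1291 of 1430 in replicate 1 of axonal shPum2 and 407 of 407 in replicate 1 of axonal shControl.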
